A study of Mus musculus with 4 samples.

Results

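The genes described here had an array value in spinal cord of mice with AT-EAE and in no control cord. AT-EAE, adoptive-transfer experimental autoimmune encephalomyelitis, models multiple sclerosis in mice: T cells that recognise myelin are moved into a recipient animal. A gene was taken when any of its spots had a value on at least 1 of the 2 AT-EAE arrays and none had a value on either control array. Of the 10225 genes on the platform, 82 met this condition, which is 0.802%. Of these, 12 were set aside by name and 7 by gene family, and the remaining 63 (0.616% of all genes) are the members. The members were thus selected on the presence of deposited values on the arrays, so which arrays hold a value is a description here and carries no test.

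Each RNA extract was a pool of spinal cords from 2 adult female SJL/J mice, either AT-EAE or control. Each 2-colour cDNA array carried a different extract of the same group in each channel, so that 2 arrays and 4 extracts stood for each group. The deposited value of a spot is the signed log ratio of the 2 channels, read here as base 2, although neither the base nor the numerator channel is given in the sources used here. A ratio therefore holds the difference between 2 extracts of 1 group plus any effect of the dyes, and these cannot be told apart here. A missing value is a spot left empty on that array, for a reason that is not given in the sources used here. Neither a ratio nor a missing value is a level of RNA in AT-EAE against control. For the age of the mice beyond adult, the stage of disease and the origin of the transferred cells, the sources used here give nothing. No label says how far extracts of a group were handled separately, so p-values measure the spread between these arrays, which may be technical.

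In EAE, T cells that meet myelin antigen in the cord recruit monocytes from the blood, and resident microglia take on an activated state. Myeloid cells read their surroundings through C-type lectin, CD300 and Ms4a membrane proteins, some of which inhibit and some of which activate the cell. Interferons switch on antiviral enzymes through STAT transcription factors. Interleukin 6 and related cytokines use other STAT proteins to raise acute phase proteins of the liver, such as serum amyloid P component. That protein is a pentraxin, of a family that binds microbes and cell debris. Whole cord mixes all of these cells, and in such bulk extracts the number of cells of a type and the RNA per cell cannot be told apart. Neither was measured here.

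Of the 63 members, 4 had a value on both AT-EAE arrays, and the base sequences just before their start sites are shown first because these genes rest on more than 1 array. Apobec1 encodes a cytidine deaminase that edits apolipoprotein B mRNA. Reg3g encodes a secreted lectin that kills bacteria, Steap4 a metalloreductase of the cell membrane, and Srgap2 a protein of the Slit and Robo pathway of neurons. The stretches are the last 120 bases before the RefSeq start in GRCm38.p6, the C57BL/6J reference and not the SJL/J genome. They lie at chr6:122602445-122602564 (minus strand) for Apobec1, chr6:78468875-78468994 (minus strand) for Reg3g, chr1:131527362-131527481 (minus strand) for Srgap2 and chr5:7960352-7960471 (plus strand) for Steap4. Capitals mark a match to the STAT motif TTCNNNGAA, which among these 4 stretches occurs in Steap4.
Apobec1: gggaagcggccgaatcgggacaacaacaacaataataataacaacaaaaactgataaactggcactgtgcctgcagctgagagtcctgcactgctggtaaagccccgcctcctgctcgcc
Reg3g: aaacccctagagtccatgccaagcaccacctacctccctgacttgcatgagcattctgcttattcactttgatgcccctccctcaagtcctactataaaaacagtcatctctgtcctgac
Srgap2: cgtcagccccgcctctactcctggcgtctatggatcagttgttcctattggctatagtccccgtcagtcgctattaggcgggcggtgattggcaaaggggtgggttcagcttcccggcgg
Steap4: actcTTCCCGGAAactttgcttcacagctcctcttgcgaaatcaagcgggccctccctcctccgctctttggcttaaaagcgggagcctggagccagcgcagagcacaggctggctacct

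Values were fewer overall in AT-EAE than in control cord, so the members run against the general direction of the arrays. Of all genes, 86.2% were valued on the first control array and 80.1% on the second, while the AT-EAE arrays reached 72.4% and, on the second, 54.9%. The control mean was 83.2% ± 4.36 (SD, n = 2), above the AT-EAE mean of 63.6% ± 12.3 (SD, n = 2). The groups did not overlap, and no test is given, since the rule used these same values. In the reverse direction, 1517 genes (14.8%) had values on control arrays alone, against the 82 on AT-EAE arrays alone. Values in both groups were held by 7407 genes, and 1219 had none. Of the genes on lists of resident cells, 10 of 11 astrocyte, 11 of 13 neuron and 6 of 7 oligodendrocyte and myelin markers had values in both groups. Counts were 8 of 12 for endothelial and pericyte genes and 13 of 17 for meninges and fibroblast genes. For Schwann cell and nerve root genes it was 1 of 3, and for ependymal and cilia genes 4 of 8. Over all genes, 7407 of 10225 had values in both groups, and no list was tested against that share.

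**Figure D1:**
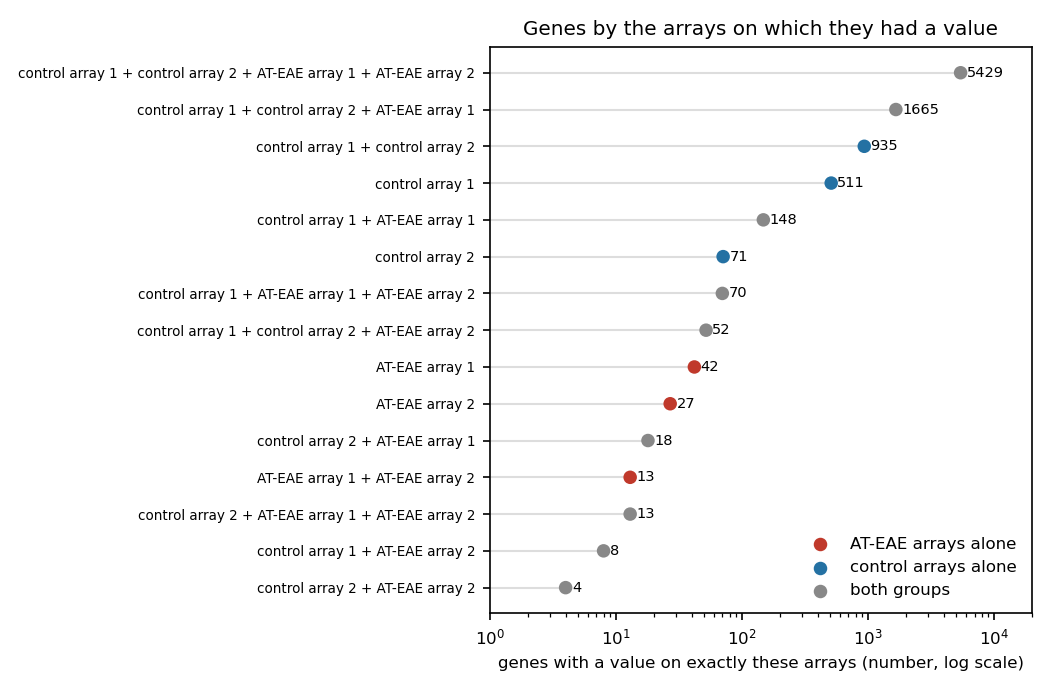
Number of genes (log scale) with a value on exactly the arrays named at the left, in red for AT-EAE arrays alone, in blue for control arrays alone and in grey for both groups. The 3 red points stand at 42, 27 and 13 genes with no symbol set aside, below the blue points at 935, 511 and 71.

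Most members rested on a single measurement. Of the 63, 35 had a value on AT-EAE array 1 alone, 24 on AT-EAE array 2 alone and 4 on both, so 93.7% were seen on 1 array. Among the 1517 genes with values on control arrays alone, 38.4% were seen on 1 array and 935 on both. The 63 members had 67 array values in all, and every one came from a single spot. A single spot on the platform represented 50 members (79.4%), against 50.5% of all genes and 69.1% of the genes with values on control arrays alone. Among the 1219 genes with no value it was 89.3%. The rule needs every spot of a gene to be empty on both control arrays, which favours genes with 1 spot. The other 13 members had 2 or 3 spots, of which 1 gave a value. Of the 13 genes with values on both AT-EAE arrays and on no control array, 9 were among those set aside by name or family, so the members hold the less repeated part of the pattern.

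The 4 members with values on both AT-EAE arrays did not show one common pattern of ratios. For Apobec1 the log2 ratio was 0.14 on the first AT-EAE array and 0.29 on the second, above 0 on both. Reg3g was below 0 on both, at -0.30 and -0.56. Steap4 lay on opposite sides of 0, at -0.46 and 0.35. Srgap2 was at -0.0000848, in effect 0, on the first and at -0.25 on the second. The numerator channel is unknown, so a sign shared by both arrays says nothing on which extract held more RNA. A mean ratio holds extract difference and any dye effect, so the following test is not one of extract differences alone. Each gene was tested for a mean ratio different from 0 on the AT-EAE arrays in a limma fit over the whole gene table. The mean was -0.43 with a standard error of 0.15 for Reg3g (limma adjusted p = 0.393), 0.21 with a standard error of 0.14 for Apobec1 (limma adjusted p = 0.603), -0.13 with a standard error of 0.15 for Srgap2 (limma adjusted p = 0.768) and -0.06 with a standard error of 0.19 for Steap4 (limma adjusted p = 0.932). None of these 4 passed the threshold of 0.05. Reg3g alone had an unadjusted p under it, which did not hold under every alternative fit. Of 5525 genes tested, limma called 1 (0.0181%), which is not a member, and 584 had an unadjusted p under 0.05.

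Relatives of these 4 on the platform, chosen after their values were seen, had values in control cord. Apobec3, a cytidine deaminase that restricts retroviruses, had a value on all 4 arrays, at -0.25 and -0.19 in control cord and at 0.12 and -0.28 in AT-EAE cord. Steap3, the ferrireductase of red cell precursors, and Srgap3 also had values on all 4. Reg4 had values on both control arrays, at 0.35 and 0.23, and on AT-EAE array 1, at 0.01. None of these 4 relatives had values in AT-EAE alone, a pattern held by 0.802% of all genes. Of all 10225 genes, 7407 had values in both groups and 1517 in control alone, so these 4 are near the background.

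Leukocyte, platelet and vessel wall genes made up 8 of the 63 members. The roles in this and the following paragraphs were assigned by hand after the values were seen. The myeloid lectin genes were Clec4a2, which encodes an inhibitory receptor of myeloid and dendritic cells, and Clec4d, which encodes an activating receptor for mycobacterial glycolipid. Clec4a2 had a log2 ratio of -0.90 on AT-EAE array 1, the lowest of the 39 members there and lower than all but 0.473% of genes on that array. Clec4d was at -0.35 on AT-EAE array 2, an ordinary value there. Neither had a value on the other AT-EAE array.

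Of the further myeloid membrane genes, Cd300lf, which encodes an inhibitory receptor for lipids, was at 0.03, and Ms4a6c, which encodes a 4-pass membrane protein of monocytes and macrophages, was at 0.17, both on AT-EAE array 1. Samsn1, an adaptor gene of blood cells, was at -0.20 on the same array. These 3 ratios were all within the bulk of that array. Among genes of other blood-borne cells, Tpsb2, which encodes a tryptase of mast cell granules, was at -0.46 on AT-EAE array 1, and Ppbp, which encodes a chemokine stored in platelets, was at -0.62 on AT-EAE array 2. Glycam1, which encodes a mucin that binds L-selectin on venules of lymph nodes, was at -0.00202 on AT-EAE array 2. In all, 6 of the 8 values of this group were below 0. For comparison, the first AT-EAE array had 47.8% of all genes and 59.0% of members below 0. The second had 59.0% of all genes and 60.7% of members below 0. The count of 6 was not tested, and with the numerator channel unknown its sign has no direction. Cma1, the other mast cell protease on the platform, and Pf4, the other platelet chemokine, had no value on any array.

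Secreted defence and plasma protein genes gave 6 members. Both Ptx3 and Apcs encode pentraxins, the long pentraxin made by inflamed tissue and serum amyloid P component of the liver. Ptx3 was at 0.23 and Apcs at 0.08, each on AT-EAE array 1. Crp, the third pentraxin on the platform, missed the rule by 1 spot, with -0.11 on control array 1 and 0.19 and -0.41 on AT-EAE arrays 1 and 2. Serpinf2, which encodes the plasmin inhibitor of plasma, was at -0.12 on AT-EAE array 1, while Serpinf1 had values on both control arrays and on AT-EAE array 1. Bpifb1, which encodes a secreted protein of airway epithelium, stood at 0.52 on AT-EAE array 1, the highest member there. Defa24, a defensin gene of gut Paneth cells, was at 0.44 on AT-EAE array 2.

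The cytokine and interferon genes were Tnfsf10 and Oas2. Tnfsf10, which encodes the death ligand TRAIL, was at 0.23 on AT-EAE array 1 through 1 of its 2 spots. Oas2, which encodes an antiviral enzyme that makes 2-5A and so activates RNase L, was at -0.43 on AT-EAE array 2 through 1 of its 3 spots. Of the 8 Oas genes on the platform, 4 had values in both groups and 3 had none, so Oas2 alone was seen in AT-EAE and not in control cord. Oas1a and Oas1b, for example, had values on all 4 arrays, between -0.30 and -0.02.

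**Figure D2:**
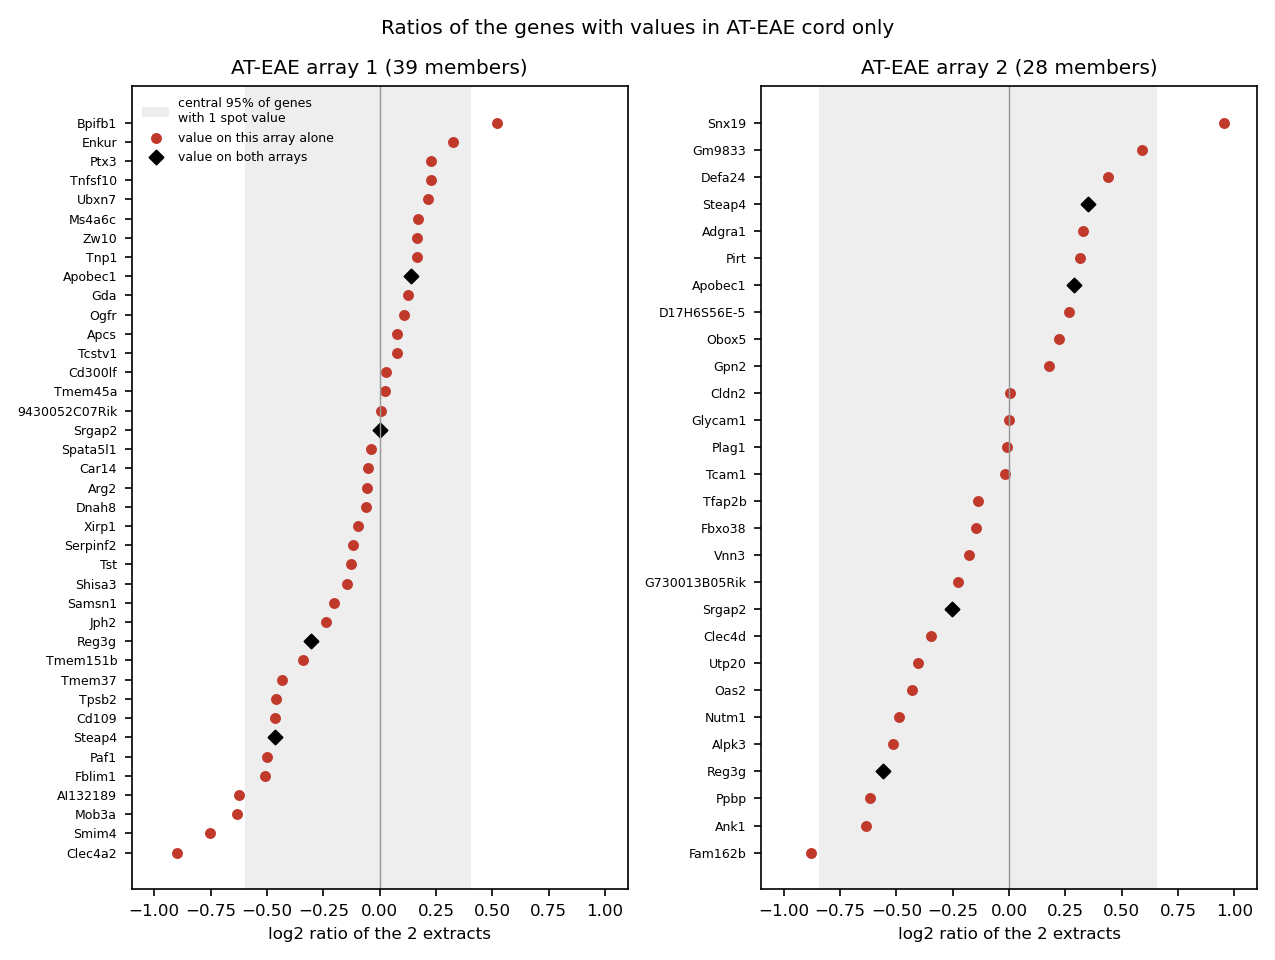
Log2 ratio of the 2 extracts for each member on AT-EAE array 1 (39 members, left) and AT-EAE array 2 (28 members, right), each from 1 spot on 1 array without error. Black diamonds are the 4 members with values on both arrays, and the grey band holds the central 95% of all genes with 1 spot value on that array. On array 1, 5 members lie outside the band, with Clec4a2 lowest at -0.90, and on array 2, 2 lie outside, with Snx19 highest at 0.96.

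Metabolic enzymes gave 6 members besides the RNA editing gene Apobec1. Arg2, the mitochondrial arginase gene, was at -0.06 on AT-EAE array 1, with 1 of its 2 spots, and a further spot assigned to several genes that include Arg2 had a value in control cord. Tst, which encodes the cyanide-detoxifying enzyme rhodanese, was at -0.13, Car14, a membrane carbonic anhydrase gene, at -0.05, and Gda, which encodes guanine deaminase, at 0.13, all on array 1. Vnn3, a pantetheinase gene, was at -0.18 on AT-EAE array 2, whereas Vnn1 had values on both control arrays and neither AT-EAE array, the opposite pattern. None of these 5 enzymes had a ratio outside the central 95% of its array.

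Muscle and cytoskeleton genes gave 6 members, with ratios from -0.63 to a value of Srgap2 that is in effect 0. Alpk3, a kinase gene of heart muscle, was at -0.51, and Ank1, which encodes the ankyrin of the red cell skeleton, at -0.63, both on AT-EAE array 2. Jph2, which encodes the junctophilin of muscle membranes, was at -0.24, Xirp1, an actin-binding protein gene of striated muscle, at -0.10, and the filamin-binding protein gene Fblim1 at -0.51, all on AT-EAE array 1. Srgap2 was the sixth. For comparison, 23 of 39 members on array 1 and 17 of 28 on array 2 were below 0, and over all genes 47.8% and 59.0% were. The skeletal and heart muscle list had no member, with 9 of its 13 genes valued in both groups and 2 in control alone.

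Germ line, embryo and cilia genes gave 7 members. Tnp1, which encodes a protein that packs sperm DNA, was at 0.16 on AT-EAE array 1, Tcam1, a testis adhesion gene, at -0.02 on array 2, and Nutm1, a testis gene, at -0.49 on array 2. Obox5, an oocyte homeobox gene, was at 0.22 on array 2, and Tcstv1, expressed in the earliest embryo, at 0.08 on array 1. The dynein gene Dnah8 was at -0.06 and Enkur, which encodes a protein of motile cilia and sperm tails, at 0.32, both on array 1. Enkur was also the 1 member on the list of ependymal and cilia genes, of which 4 of 8 had values in both groups and 3 had none. Whether these spots report the gene they are assigned to was not tested, since clone sequences were not analysed here.

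Of the nuclear genes, Paf1, which encodes a subunit of an RNA polymerase II elongation complex, was at -0.50, and Zw10, a kinetochore gene, at 0.17 on AT-EAE array 1. Plag1 and Tfap2b, both transcription factor genes, were at -0.01 and -0.14, and Utp20, which acts in ribosome assembly, at -0.41 on AT-EAE array 2. Membrane protein genes numbered 8, among them the tight junction gene Cldn2 at 0.00360, the adhesion receptor gene Adgra1 at 0.33 and the sensory neuron channel regulator Pirt at 0.31 on array 2. On array 1, Cd109, which encodes a surface protein that binds TGF-beta, was at -0.46, the calcium channel subunit gene Tmem37 at -0.43, Tmem151b at -0.34, Shisa3 at -0.14 and Tmem45a at 0.02. As for Arg2, a spot of several genes that include Shisa3, and another that includes Tmem151b, had a control value. Of the 9 claudin genes on the platform, 4 had values in both groups, 2 in control alone and 2 in none. Snx19, a sorting nexin gene of endosomes, had the highest ratio of all members, at 0.96 on AT-EAE array 2, above 99.6% of the genes there. The ubiquitin pathway genes Ubxn7 and Fbxo38 were at 0.22 on array 1 and -0.15 on array 2.

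The 11 members whose role is not stated ranged from -0.88 to 0.59. Among them Fam162b, at -0.88 on AT-EAE array 2, and Smim4 at -0.75 and Mob3a at -0.63, beside a gene known by a clone number at -0.62, on AT-EAE array 1 lay outside the central 95% of genes with 1 spot value. In all, 5 of 39 members (12.8%) on array 1 and 2 of 28 (7.14%) on array 2 lay outside that range, against 5% of such genes by construction.

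Members' ratios were somewhat larger in size than those of other genes on the same array. On AT-EAE array 1 the median absolute log2 ratio was 0.17 over 39 members, 0.12 over all genes and 0.13 over genes with 1 spot value. On AT-EAE array 2 it was 0.32 over 28 members, 0.23 over all genes and 0.25 over genes with 1 spot value. The same held in control cord, where genes with a value on control array 1 or control array 2 alone had medians of 0.17 and 0.23, against 0.14 and 0.17 over genes with 1 spot value there. These are descriptions of single arrays, and the difference between members and other genes was not tested. No member reached a 2-fold ratio, a log2 ratio of 1 in size, against 0.365% of all genes on AT-EAE array 1 and 1.07% on the other.

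Among the lists of cell type markers and gene classes, that of CD antigens and leukocyte membrane proteins held the most members by number, though not by share. It was matched on the beginnings of symbols, so it can hold genes that are not of leukocytes. Of 37 lists, 14 held a member, and 17 of the 63 members were on a list. The share of all genes that are on a list was not counted, so the 17 is not a result about the members. The list of CD antigens and leukocyte membrane proteins held 5 members of its 136 genes (3.68%, beside 0.616% over all genes), namely Cd109, Cd300lf, Clec4a2, Clec4d and Ms4a6c, while 15 of its genes had values in control alone. The microglia and macrophage list held Clec4a2 and Clec4d among its 26 genes on the platform (7.69%), 17 with values in both groups and 0 in control alone. With the genes set aside by name included, 7 of these 26 (26.9%, beside 0.802% over all genes) had values in AT-EAE alone. That count was 5 without AT-EAE array 1, 5 without AT-EAE array 2, 8 without control array 1 and 9 without control array 2. The list was known from earlier results of these data to keep its values in AT-EAE, so the count is not independent evidence.

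Other immune lists held few members or none, and some held more with the genes set aside included. The interferon response list held Oas2 among 44 genes (2.27%), with 28 valued in both groups and 10 in none. With the genes set aside it held 3 of 44 (6.82%, beside 0.802% over all genes). As many, 3 of 44 (6.82%, beside 14.8% over all genes), had values in control alone. The complement and acute phase list held Apcs among 21 (4.76%), or 4 of 21 (19.0%) with the genes set aside, and 2 (9.52%) had values in control alone. The inflammasome, sensing and NF-kB list held no member among 25 genes, but 2 (8%) with the genes set aside. More of its genes, 4 of 25 (16%), had values in control alone. The dendritic and mast cell list held Tpsb2 among 8, the red blood cell list Ank1 among 18, and the list of interleukins, TNF and growth cytokines Tnfsf10 among 49. In control alone, these lists had 1, 2 and 9 genes, in the same order. The lists for T cells (13 genes), B and plasma cells (13), NK cells (7), neutrophils (8), antigen presentation (18) and chemokines with their receptors (20) held none. At the 0.616% over all genes, lists of this size would mostly hold none, so these counts of 0 are near the background. For T cells, 5 of 13 genes had values in both groups, 6 in none and 2 in control alone, so no T cell marker had a value in AT-EAE alone. All 18 antigen presentation genes either had values in both groups (13) or in none (5). Larger lists that held none, such as cell cycle and mitosis (147 genes), histones and chromatin (114) and protein kinases and phosphatases (237), were also near that share. Their shares with values in control alone were 15.6%, 11.4% and 10.1%, beside 14.8% over all genes.

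**Figure D3:**
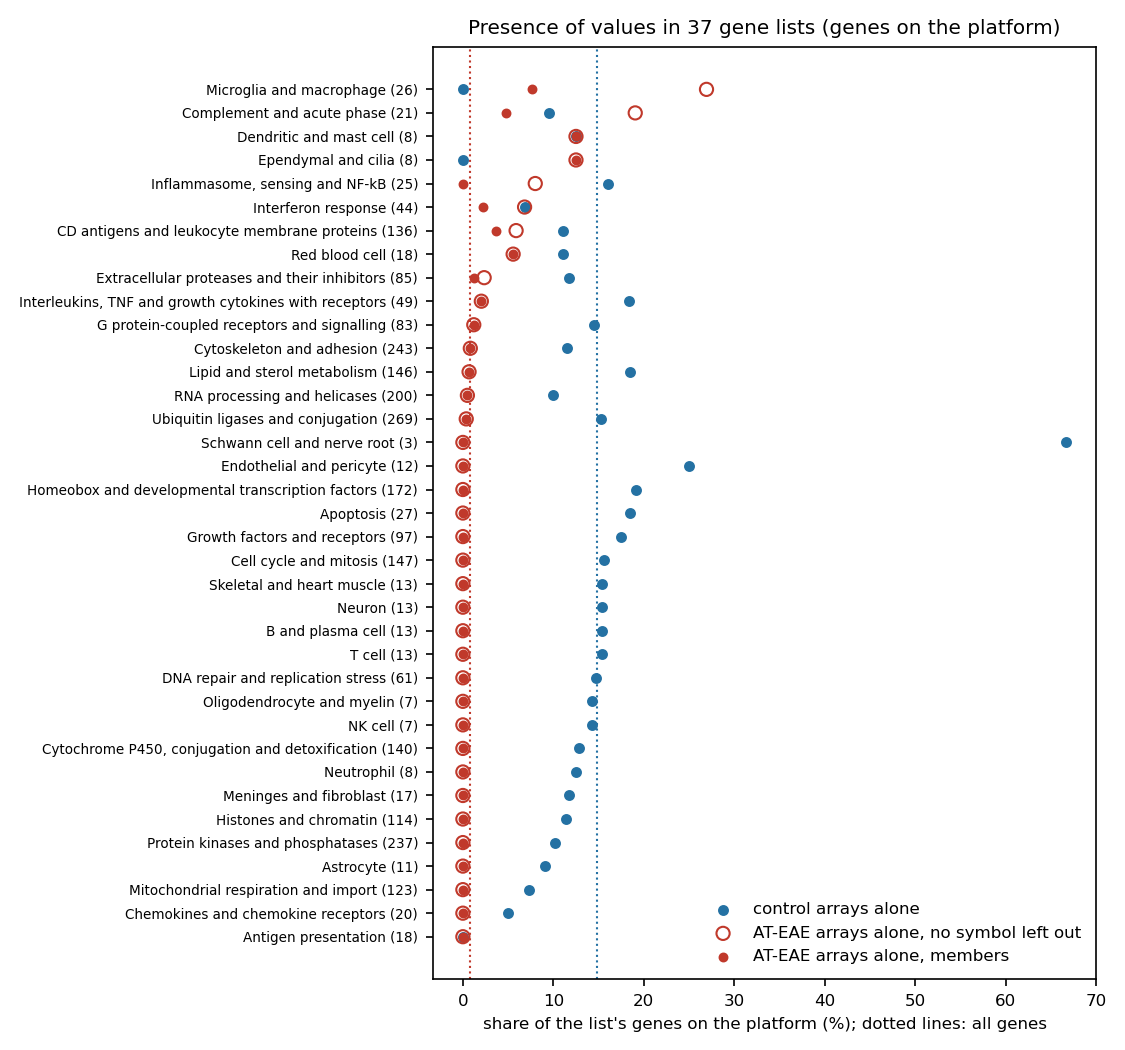
Share of each list's genes on the platform with values on AT-EAE arrays alone (red, filled for members and open with no symbol set aside) and on control arrays alone (blue), with dotted lines for all genes at 0.802% and 14.8%. Microglia and macrophage genes have the highest open red point, at 26.9%, with the blue point at 0, and most lists have red points at 0.

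Just outside the rule were genes with values on both AT-EAE arrays and a single spot value in control cord. There were 78 of these, with the control value on array 1 for 65 and on array 2 for 13. Of the 78, 30 were on a list, and those named here, of immune and of cord cell lists, were chosen after their values were seen. The 30 also held genes of other lists, such as RNA processing, kinases, histones and cytochrome P450, which are not named. The share of all genes on a list was not counted. They included Csf2rb, the shared receptor chain for interleukin 3, interleukin 5 and GM-CSF, at -0.06 on control array 1 and 0.07 and 0.54 on AT-EAE arrays 1 and 2. Pycard, which encodes the inflammasome adaptor ASC, was at -0.05 on control array 1 and 0.01 and 0.11 on the AT-EAE arrays. Tap1, which encodes a peptide transporter for MHC class I, was at 0.08 on control array 1 and 0.09 and 0.29 on the AT-EAE arrays. Gbp3, an interferon-induced GTPase gene, was at -1.05 on control array 2 and -0.16 and 0.45 on the AT-EAE arrays, its largest ratio being the one in control cord. Gata3, a transcription factor gene of T helper cells and other tissues, was at -0.08 on control array 1 and 0.12 and 0.09 on the AT-EAE arrays. Gad1, which encodes the GABA-making enzyme of inhibitory neurons, was at -0.06 on control array 1 and 0.06 and -0.20 on the AT-EAE arrays. The genes just outside thus included neuron as well as immune genes. By the way this set was drawn, each was on more AT-EAE arrays than 59 of the 63 members, and 1 control spot kept it out. With a value on at least 1 AT-EAE array and exactly 1 control spot value there were 245 genes. Just inside the rule were those 59 members, with 1 spot value each.

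The members lay on 20 chromosomes, with at most 6 on any, and 61 of the 63 could be placed in the GRCm38.p6 gene table. Only 1 pair of neighbouring members had 9 or fewer protein-coding genes between them, Clec4a2 and Clec4d on chromosome 6, with 2 between. Apobec1 lies on the same chromosome, at the start of a run of 17 protein-coding genes that ends with Clec4e. This run was picked after the values were seen and was set to begin at a member, so its count of such genes is partly fixed by its edges. Of its 12 genes on the platform, 4 had values in AT-EAE alone, beside 0.802% over all genes. They were Apobec1, Clec4a2, Clec4d and the complement receptor gene C3ar1, 1 of the genes set aside. In the same run, Gdf3, Dppa3, Nanog, Foxj2, Necap1 and Clec4a1 had values on all 4 arrays, Slc2a3 on both control arrays alone, and Clec4e on none. Clec4a1, also a lectin gene, was at -0.47 and -0.14 on the control arrays and at -0.17 and -0.39 on the AT-EAE arrays, so lectin genes of the run did not share 1 pattern.

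**Figure D4:**
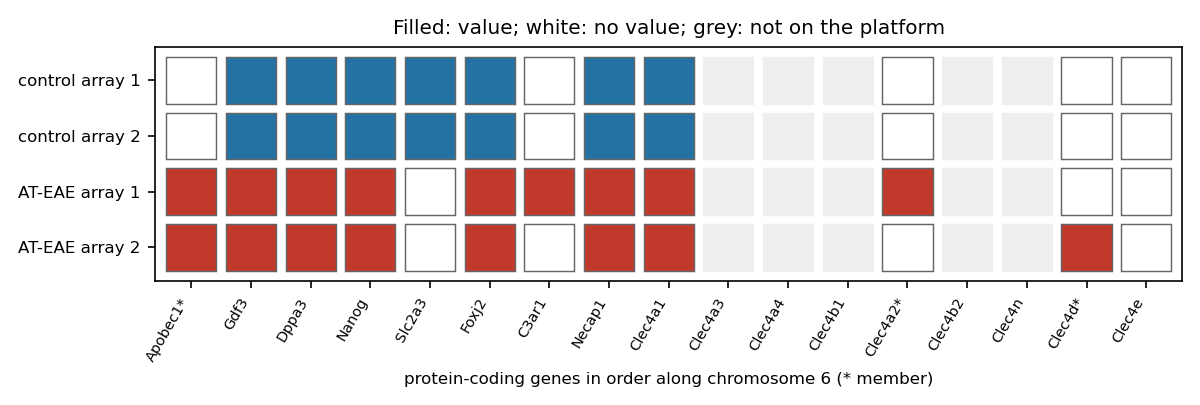
Protein-coding genes in order along a run of chromosome 6 (horizontal) by array (vertical), with filled squares for a value, white for none and grey for genes not on the platform. The members Apobec1, Clec4a2 and Clec4d (asterisks) and C3ar1 are empty in both control rows and filled in 1 or both AT-EAE rows, while their 6 neighbours with values on all 4 arrays fill each row.

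Promoter windows of 300 bases, 250 before and 50 after the RefSeq start, were read for 47 of the members, and 4 motifs were searched on both strands. The STAT motif TTCNNNGAA, which reads the same on both strands, occurred for 9 of 47 members (19.1%), against 8.15% of the 8138 platform genes with a window, 8.06% of the genes with values on control arrays alone and 8.30% of all 32851 windows. The 9 were Apcs, Bpifb1, Clec4a2, Glycam1, Paf1, Spata5l1, Steap4, Tmem151b and Ubxn7, each with its match before the start. The share rested on AT-EAE array 1. It was 8 of 31 (25.8%) among members seen on that array and 2 of 20 among those seen on AT-EAE array 2, and it was 8.72% of the 218 genes with a window that the rule takes without control array 1. The interferon-stimulated response element, GAAA and again GAAA with any 2 bases between, occurred for 3 of 47 members (6.38%, against 3.74% of platform genes and 3.44% of windows, but before the start alone for 1, 2.13%, against 3.22% of platform genes), the NF-kB motif, GGGA and TTCC with any 2 bases between, for 1 (2.13%, against 1.72% and 1.47%) and the AP-1 motif TGANTCA for 4 (8.51%, against 6.71% and 7.81%). A match is a run of letters, and no binding was measured.

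The 60 bases around a match are shown for 3 members known for roles in immunity with a STAT motif, and for the member with an interferon-stimulated response element before its start. Capitals mark the match, and all are from GRCm38.p6. They lie at chr6:123122623-123122682 (plus strand) for Clec4a2, chr15:103565192-103565251 (minus strand) for Glycam1, chr1:172895245-172895304 (minus strand) for Apcs and chr17:35000799-35000858 (minus strand) for D17H6S56E-5. The match begins 42 bases before the start in Clec4a2, 145 in Glycam1, 244 in Apcs and 87 in D17H6S56E-5, which was at 0.27 on AT-EAE array 2 through 1 of its 2 spots.
Clec4a2: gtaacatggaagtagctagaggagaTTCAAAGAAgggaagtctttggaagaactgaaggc
Glycam1: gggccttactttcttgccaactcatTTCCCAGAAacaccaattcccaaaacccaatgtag
Apcs: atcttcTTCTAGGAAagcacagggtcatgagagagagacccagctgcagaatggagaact
D17H6S56E-5: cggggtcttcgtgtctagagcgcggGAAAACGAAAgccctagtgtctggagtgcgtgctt

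**Figure D5:**
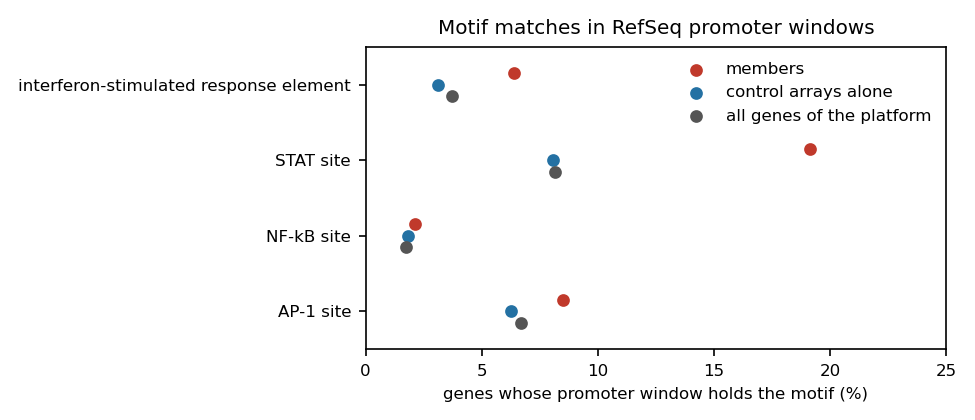
Share of genes whose promoter window holds each motif, for the 47 members with a window (red), the 1216 genes with values on control arrays alone (blue) and all 8138 platform genes with a window (grey). The red point for the STAT motif lies at 19.1%, apart from 8.06% and 8.15%, and the other 3 motifs lie closer together.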

How the data were processed

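Spinal cord RNA was measured on 4 two-colour cDNA arrays of 28704 spots, 2 per group. Per the labels, the authors normalized green and red signals, and the deposited values are signed log ratios, taken as log2 with no statement of the base. The sources used here do not give the background correction, spot filter or software, and how far signals stood above background is not analysed here. The number of arrays limits the precision. Of the spots, 18511 had 1 gene in the platform annotation, 937 several and 9256 none. Symbols were updated through gene identifiers to GRCm38.p6 for 18267 spots and kept for 244. Spots with several genes or none were left out. Where several spots of a gene had values, their mean was used.

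Members, lists and roles were chosen with earlier results of these data known. Genes were named if they had values on both AT-EAE arrays, a 2-fold ratio, 2 spot values on 1 array, or a place on a cell type or immune list, and members named for other roles were chosen after their values were seen. No list was tested for enrichment. The fit across all genes used limma 3.58.1 (R 4.3.3) on ratios of all 4 arrays, 1 mean per group, with Benjamini-Hochberg adjustment over genes with values on both AT-EAE arrays, and was tested on simulated data, where it called more unshifted genes than the threshold allows when each array had its own spread. The AT-EAE arrays do differ in spread, so the limma p-values may be too small. Promoter windows are from RefSeq. Tables were made with pandas 2.3.3, numpy 2.4.6 and scipy 1.17.1 in Python 3.11.15, and figures with matplotlib 3.10.9. Columns of no sample numbered 0. Alternatives left out each array and changed the spots, genes and fit used.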

Additional observations from a re-analysis of the deposited data

How the results depend on the processing

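The number of members rests on single arrays and spots. It was 63 as reported, between 28 and 278 when 1 array was left out (278 without control array 1, 96 without control array 2, 28 without AT-EAE array 1 and 39 without AT-EAE array 2), 4 with values required on both AT-EAE arrays, 13 with genes of 2 or more spots, and 150 when spots were counted in place of genes. It was 50 with 1-spot genes, 60 when spots of several genes counted against (Arg2, Shisa3 and Tmem151b fell out) and 82 with no symbol left out. Members with values on both AT-EAE arrays numbered 4, with 72 without control array 1, 17 without control array 2, 0 with 2 or more spots and 13 with no symbol left out.

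Genes called by limma numbered 1, with 0 under trend and robust settings, 3 with spots, 3 with AT-EAE arrays alone, 4 after subtraction of the array median, 1 with array weights (chosen after seeing the data) and 3 to 156 when 1 array was left out, where a lone array is assumed to vary like the others. Under the settings that test the 4 members, none was called. The unadjusted limma p of Reg3g was 0.0159 as reported and 0.103 with trend and robust settings. It was 0.0314 with array weights and 0.0179 after subtraction of the array median. An unadjusted p under 0.05 was held by 584 genes, 479 with trend and robust settings and 350 with array weights. Members with a STAT motif numbered 9, and 2 to 19 when 1 array was left out. The lead of control over AT-EAE in the share of genes with a value was 19.5 percentage points, 23.1 over spots, and 10.8 to 28.2 when 1 array was left out. Median absolute ratios of members moved by less than the spread between arrays under the alternatives run. No paired analysis was possible because members have no control values and the array numbers only name the arrays.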
